A study of Mus musculus with 6 samples.

Results

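The microRNAs miR-143 and miR-145a were followed in Hepa1-6 tumours of mice through the 4 mature arms that the array carries for them, out of 1881 mouse miRNAs. The members were taken by name as mmu-miR-143-3p, mmu-miR-143-5p, mmu-miR-145a-5p and mmu-miR-145a-3p (mmu, for mouse, is left out from here on), and all 4 were on the array with 10 probes in all. Both arms that are usually the functional strand, miR-143-3p and miR-145a-5p, were bright enough to be tested among 388 miRNAs, and both partner arms stayed at background on all 6 arrays. In tumours of GLE-treated mice miR-143-3p had a value 1.20-fold that of the model tumours, with a 95% interval of 0.857-fold to 1.69-fold. For miR-145a-5p the ratio was 0.982, with an interval of 0.711-fold to 1.36-fold, and neither passed the test.

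Tumours were raised in C57BL/6 mice by injecting 0.1 ml of Hepa1-6 cells, a cultured mouse hepatoma line, into the right flank, so every group carried a subcutaneous graft of 1 cell line in a host with its own stroma and blood. The treatment of 3 mice is named GLE, an abbreviation that the labels leave unexplained, and the daily dose was 0.023 g in total per 10 g mouse. The 3 model mice received no GLE and 0.2 ml of 0.9% saline once daily over 28 days, and the labels give 28 days as the age of every sample. Total RNA of each tumour was labelled with Cy3 and hybridised to an array of its own, so n was 3 per group. Each array was taken as a separate mouse.

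The genes of miR-143 and miR-145a lie close together and are transcribed as one primary RNA, from which Drosha and Dicer cut 2 hairpins. Of each hairpin, 1 strand is mostly loaded into Argonaute to repress mRNAs by its seed, and the other is mostly degraded. The pair is abundant in smooth muscle cells and pericytes, where serum response factor with myocardin drives it and where it favours the contractile state over the proliferative one. It is also expressed in fibroblasts, and in many tumours its level has been discussed in terms of how much stroma a sample holds. The probes for the miR-143 arms cover chromosome 18, 61808895 to 61808909 for miR-143-3p and 61808862 to 61808875 for miR-143-5p (mm9, the build in the file headers). Those of miR-145a cover 61807494 to 61807507 for miR-145a-5p and 61807526 to 61807546 for miR-145a-3p. The covered positions of the leading arms are 1387 bases apart. In the RefSeq gene table, which is of another build and was used for names only, Mir143 and Mir145a both lie within the span of Carmn, a long non-coding RNA gene also listed as Mir143hg. Mir145b, listed on the same chromosome, lies outside that span.

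All 6 arrays lay on 1 slide read in 1 scan. The GLE arrays were in slide row 1 and the model arrays in slide row 2, so slide row and group cannot be told apart. Between 378 and 458 miRNAs were detected per array. The 75th percentile signal used to scale the arrays ran from 203 to 364 intensity units, and the number of arrays limits the precision of every value. Of the tumour's other cell types, 5 of 6 fibroblast and mesenchymal, 1 of 2 endothelial, 4 of 7 muscle, 6 of 6 blood cell and 2 of 5 epithelial miRNAs could be tested, while the hepatocyte marker miR-122-5p was detected on 2 of the 6 arrays and miR-122-3p on 0. In bulk tumour RNA, fewer cells of a type and less RNA per cell cannot be told apart, and which cells gave the signals below was not measured.

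miR-143-3p, the guide strand of its hairpin, was read by 2 probes with 15 spots each per array. All of its 180 spots over the 6 arrays were well above background. Its mean processed signal, an intensity after background subtraction, was 50.5 in GLE replicate 1, 83.0 in GLE replicate 2 and 82.0 in GLE replicate 3. In the model tumours it was 77.4 in replicate 1, 45.4 in replicate 2 and 49.0 in replicate 3. Before scaling, 1 GLE array thus lay among the dim model arrays and 1 model array among the bright GLE arrays, and the groups overlapped.

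miR-145a-5p, the guide strand of the neighbouring hairpin, was dimmer but measurable. Of its 180 spots 157 were well above background. Its mean processed signal was 18.1, 29.6 and 26.0 in GLE replicates 1, 2 and 3. It was 30.2, 24.6 and 16.7 in model replicates 1, 2 and 3. The highest and the lowest array both belonged to the model group. The fewest spots well above background, 9 of 15, were those of the shorter probe in GLE replicate 1.

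**Figure D1:**
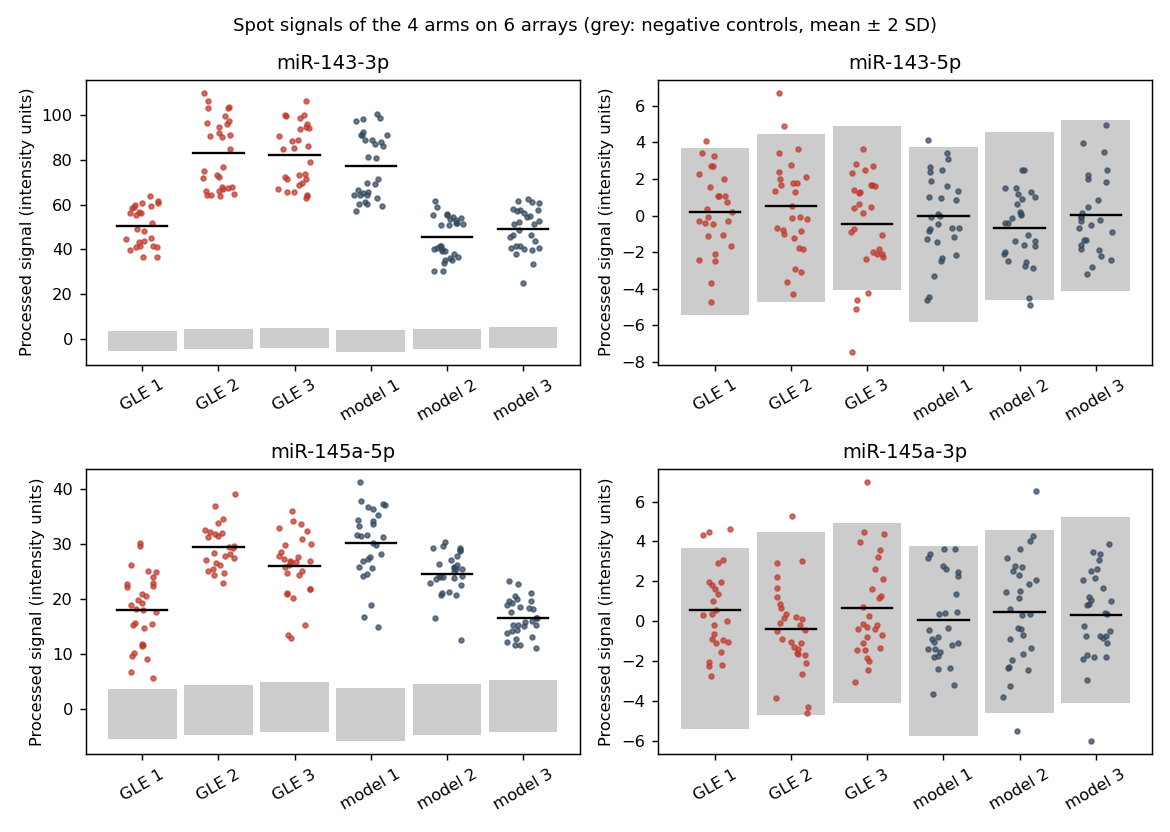
Processed signal (intensity units) of every spot without an outlier flag for the 4 arms on the 6 arrays, red for GLE and dark blue for model tumours, with the mean as a black line and the negative control spots (mean ± 2 SD) as grey bands. The guide arms miR-143-3p (array means 45.4 to 83.0) and miR-145a-5p (16.7 to 30.2) stand above the bands, and most spots and all array means of both partner arms lie within them.

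The partner arms gave no measurable signal. Of the 180 spots of miR-143-5p, 1 was well above background, and its array means ran from −0.67 to 0.50 intensity units. For miR-145a-3p, read by 4 probes, it was again 1 of 180 spots, with array means from −0.38 to 0.66. The negative control spots of the same arrays had means from −1.01 to 0.55 with SDs of 2.25 to 2.39, and 0 of their 5879 spots without an outlier flag were well above background. Neither partner arm reached the detection rule (more than a share of 0.5 of a probe's spots well above background) with any probe on any array, so no fold and no test is given for them. In the authors' deposited table both partner arms are listed at the column's lowest value on all 6 arrays. The arms of a hairpin are read by different probes, so these signals give no ratio of the arms to each other. miR-145b, a paralogue named here after its values were seen, had 0 of 180 spots well above background.

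To compare tumours, signals were scaled by the array's 75th percentile, taken over 636 probes that every array detected, and values are given as log2 of the scaled signal. On this scale miR-143-3p stood at −1.99, −2.15 and −1.58 in GLE replicates 1, 2 and 3. The model values were −2.03, −2.36 and −2.13 in replicates 1, 2 and 3. GLE replicate 3 was the highest and model replicate 2 the lowest, and GLE replicate 2 lay below 2 of the 3 model tumours. The means were −1.91 ± 0.30 in GLE and −2.18 ± 0.17 in model tumours (SD, n = 3), a difference of 0.27 ± 0.21 (SE; limma adjusted p = 0.935 over 388 miRNAs). Without GLE replicate 3 the difference was 0.10.

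For miR-145a-5p the scaled values were −3.50, −3.63 and −3.22 in GLE replicates 1, 2 and 3. They were −3.37, −3.23 and −3.66 in the model tumours. Here GLE replicate 3 and model replicate 2 were the 2 highest, and the groups lay within almost the same range. The means were −3.45 ± 0.21 and −3.42 ± 0.22 (SD, n = 3), a difference of −0.03 ± 0.20 (SE; limma adjusted p = 0.973). Its sign turned under no scaling, 2 of the spike-in scalings, normexp background correction and the brightest (longer) probe, and when GLE replicate 1, GLE replicate 2 or model replicate 2 was left out.

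Over all 388 tested miRNAs, 0 passed limma's threshold (0% called), and 6, or 1.55%, had an unadjusted p under 0.05. That last count rested on single arrays: it was 109 of 399 without GLE replicate 2, 0 without GLE replicate 1, GLE replicate 3 or model replicate 2, 1 without model replicate 1 and 3 without model replicate 3, with 0 past the threshold in each. The groups did not overlap in 26 miRNAs, or 6.70%, of which 18, or 4.64% of those tested, were higher in GLE, and neither guide arm was among these. The median difference of all tested miRNAs was 0.0078. In size, the difference of miR-143-3p stood at the 67.8th percentile of all differences and that of miR-145a-5p at the 8.25th percentile. The residual SD was 0.24 for miR-143-3p and 0.22 for miR-145a-5p, against a median of 0.28 over tested miRNAs. It measures the spread between arrays of the same group, in which differences between mice and between hybridisations cannot be told apart.

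**Figure D2:**
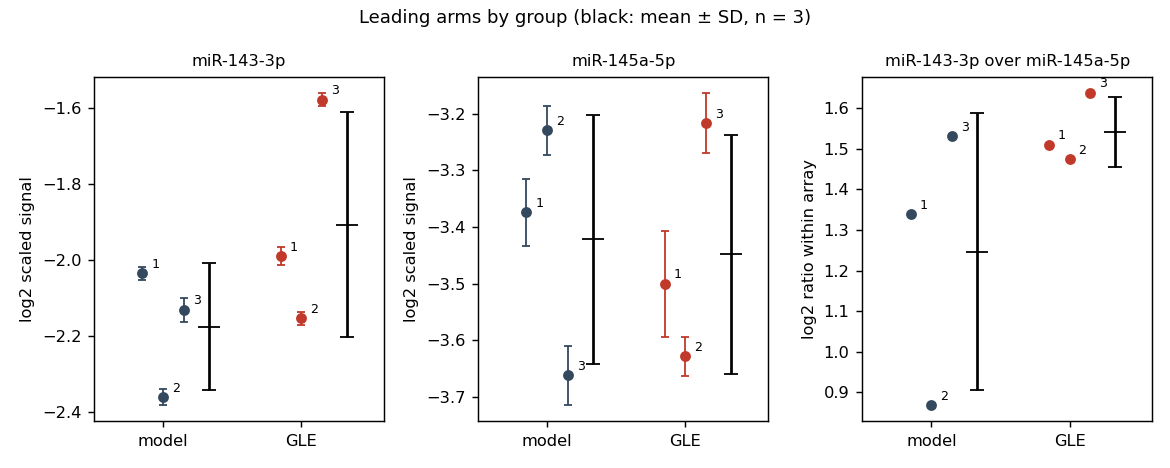
Log2 scaled signal of miR-143-3p and miR-145a-5p and the log2 ratio of the 2 within each array, for 3 model and 3 GLE tumours; numbers are replicates, bars on the points are the SE from spots and black marks are group means ± SD. In each panel the groups overlap, and model replicate 2 has the lowest ratio (0.87).

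The spots show how much of this spread lies within an array. The SE from spots was 0.02 to 0.03 on the log2 scale for miR-143-3p and 0.03 to 0.09 for miR-145a-5p. Both were below the SD between arrays in either group. The 2 probes of miR-143-3p, which cover 14 and 15 bases, had a ratio of longer over shorter of 1.40 ± 0.041 (SD, n = 6 arrays). Their GLE minus model differences were 0.29 for the shorter and 0.25 for the longer (exact permutation p = 0.3 for both). The 2 probes of miR-145a-5p, which cover 13 and 14 bases, held their ratio less closely, at 1.14 ± 0.11. Here the shorter probe differed by −0.14 (exact permutation p = 0.6) and the longer by 0.08 (exact permutation p = 0.7), so the probes disagreed in sign.

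Since both miRNAs are cut from one transcript, the ratio of their signals within each array shows whether they changed unequally, and no scaling between arrays enters it. Its size depends on the probes and is not a ratio of molecules. The log2 ratio of miR-143-3p over miR-145a-5p was 1.51, 1.47 and 1.64 in GLE replicates 1, 2 and 3. It was 1.34, 0.87 and 1.53 in model replicates 1, 2 and 3. The GLE tumours were close to each other, model replicate 3 fell within their range, and model replicate 2 stood lowest. The means were 1.54 ± 0.086 in GLE and 1.25 ± 0.34 in model tumours (SD, n = 3). The difference of 0.30 was within the spread (two-sided exact permutation p = 0.3 over 20 relabelings, where the smallest possible value was 0.1). Without model replicate 2 it was 0.11, and with normexp background correction 0.084.

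Over the 6 tumours the guide arms were only weakly related on the scaled values. Pearson's r between miR-143-3p and miR-145a-5p was 0.30 (exact permutation p = 0.594, adjusted p = 0.915 over the 13 relations computed here, n = 6). Spearman's rho was 0.31 (exact permutation p = 0.564, adjusted p = 0.949), and r was −0.54 without the 2 arrays farthest from the median of miR-145a-5p. Among 387 other miRNAs, miR-145a-5p ranked 162nd in likeness to miR-143-3p. This r depended on single arrays. In model replicate 2 miR-143-3p was lowest and miR-145a-5p second highest, and without it r was 0.89 (exact permutation p = 0.0167, n = 5). Leaving out the array in which the arms diverged most raises r in any case, so this p is not a test of the relation. Without GLE replicate 3 r was −0.31 (exact permutation p = 0.642, n = 5). The r also moved with the scaling, to −0.12 with the percentile over all probes and to 0.75 with no scaling (exact permutation p = 0.142, n = 6), where array brightness is shared by every miRNA.

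Of the cell type lists, miR-143-3p had an r past the threshold with the mesenchymal and the endothelial one. The relations with these lists were not among the planned tests. Its r with the mean of the 5 tested fibroblast and mesenchymal miRNAs (miR-199a-3p, miR-199a-5p, miR-199b-5p, miR-214-3p and miR-152-3p) was 0.93 (exact permutation p = 0.00694, adjusted p = 0.0451, n = 6). Spearman's rho was 0.94 (exact permutation p = 0.0167, adjusted p = 0.217). In GLE replicates 1, 2 and 3 the mean of the list was −1.22, −1.98 and −0.45. Model replicates 1, 2 and 3 had −1.91, −2.16 and −1.54, so the same tumours, GLE replicate 3 and model replicate 2, were at the ends of both. All 5 differences between the groups were positive, beside 198 of all 388 tested miRNAs, and 0 passed the test. Their median was 0.68, but 0.23 without GLE replicate 3 and 1.09 without GLE replicate 2. The 5 are not all separate, since miR-199a-3p and miR-199a-5p are arms of 1 miRNA, and miR-152-3p had the smallest difference, 0.24. The part of these cells in the values of miR-143-3p was not tested. The 2 arrays farthest from the median of the list were GLE replicates 3 and 1, and r was 0.57 with both left out. Leaving out GLE replicate 3 alone gave 0.68 (exact permutation p = 0.175, n = 5). Dropping only GLE replicate 1 gave 0.92 (exact permutation p = 0.05, n = 5), and dropping only model replicate 2 gave 0.89 (exact permutation p = 0.0667, n = 5). Of the single arrays, r thus depended most on GLE replicate 3. With miR-126a-3p, the 1 tested endothelial miRNA, at 1.52 to 2.00 in GLE and 1.20 to 1.44 in model tumours, r was 0.87 (exact permutation p = 0.00556, adjusted p = 0.0451, n = 6). Its rho was 0.83 (exact permutation p = 0.0583, adjusted p = 0.253), and r was 0.68 without the 2 farthest arrays. It was 0.76 without GLE replicate 3 (exact permutation p = 0.133, n = 5) and 0.82 without model replicate 2 (exact permutation p = 0.0667, n = 5). With the list of 6 blood cell miRNAs, whose mean ran from −0.24 to 0.88 in GLE and from −0.47 to 0.34 in model tumours, it was 0.78 (exact permutation p = 0.0292, adjusted p = 0.126, n = 6), with rho at 0.83 (exact permutation p = 0.0583, adjusted p = 0.253) and r at 0.38 without the 2 farthest arrays. Between the groups, 5 of these 6 miRNAs had a positive difference, beside 198 of all 388 tested. The largest of the 6 was 1.21, for miR-342-3p. That of miR-451a was −0.26, and 0 of the 6 passed the test. With each value taken as its deviation from the group mean, r of miR-143-3p was 0.89 with the mesenchymal list, 0.88 with miR-126a-3p and 0.68 with the blood cell list over the 6 arrays, given with no test. The epithelial miRNAs miR-200a-3p and miR-200b-3p, which were not set against the guide arms, differed by −0.59 ± 0.75 and −0.63 ± 0.66 (SE; limma adjusted p = 0.946 and 0.935). Their mean was lowest in GLE replicate 3, at −1.01, and highest in GLE replicate 2, at 1.89.

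The r of miR-145a-5p with the same lists was lower. It was 0.25 with the fibroblast and mesenchymal list (exact permutation p = 0.678, adjusted p = 0.915, n = 6), and rho was 0.14 (exact permutation p = 0.803, adjusted p = 0.949). It was 0.20 with miR-126a-3p (exact permutation p = 0.667, adjusted p = 0.915, n = 6), where rho was 0.26 (exact permutation p = 0.658, adjusted p = 0.949). With the blood cell list r was −0.0040 (exact permutation p = 0.992, adjusted p = 0.992, n = 6) and rho 0.029 (exact permutation p = 1, adjusted p = 1). As deviations from the group means r was 0.35 with the mesenchymal list, 0.49 with miR-126a-3p and 0.05 with the blood cell list, and 0.41 between the guide arms. Whether these r differ from those of miR-143-3p was not tested. Both guide arms had small r with the skeletal and cardiac muscle list, −0.16 for miR-143-3p and −0.18 for miR-145a-5p (exact permutation p = 0.758 and 0.753, adjusted p = 0.915 for both, n = 6; rho −0.26 for both, exact permutation p = 0.658, adjusted p = 0.949). Against the brightness of the array r was −0.09 and −0.14 (exact permutation p = 0.844 and 0.779, adjusted p = 0.915 for both, n = 6; rho −0.20 and 0.14, exact permutation p = 0.714 and 0.803, adjusted p = 0.949 for both). With the 2 tested hepatocyte miRNAs it was −0.35 and −0.29 (exact permutation p = 0.429 and 0.629, adjusted p = 0.915 for both, n = 6; rho −0.43 and 0.029, exact permutation p = 0.419 and 1, adjusted p = 0.949 and 1).

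**Figure D3:**
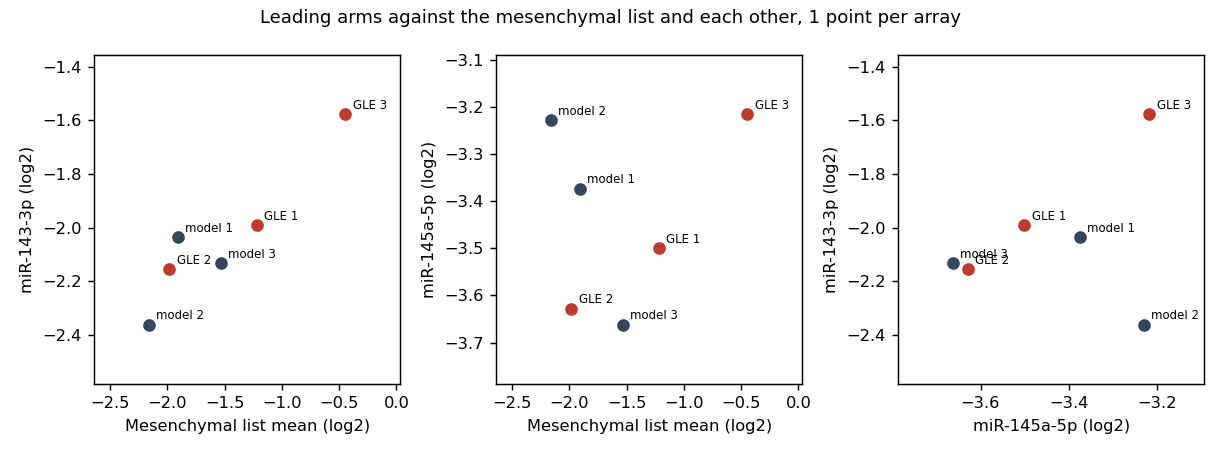
Log2 scaled signal of miR-143-3p and of miR-145a-5p against the mean of 5 fibroblast and mesenchymal miRNAs, and against each other, with 1 point per array, red for GLE and dark blue for model tumours. Pearson's r is 0.93 in the left, 0.25 in the middle and 0.30 in the right panel, and GLE replicate 3 lies at the upper right of all 3.

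Of the 6 miRNAs whose values over the 6 arrays were most like those of miR-143-3p (r from 0.93 to 0.98), 3 have probes on chromosome 12, namely miR-379-5p (r = 0.98), miR-127-3p (0.95) and miR-300-3p (0.93), which belong to the imprinted Dlk1-Dio3 cluster. A further pair maps to chromosome 11, miR-497a-5p (0.95) and miR-195a-5p (0.94), and miR-652-3p (0.94) maps to chromosome X. All 6 values come from the same arrays and share their scaling, and no p is given. Their mature sequences (RefSeq, GRCm38.p6) are shown so that the seeds, bases 2 to 8 in capitals, can be compared. Of these, miR-497a-5p and miR-195a-5p share a seed, and the other 4 seeds differ from it and from each other. Whether likeness in sequence bears on likeness in signal was not tested.
miR-379-5p: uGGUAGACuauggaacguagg
miR-127-3p: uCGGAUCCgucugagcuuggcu
miR-497a-5p: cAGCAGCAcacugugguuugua
miR-652-3p: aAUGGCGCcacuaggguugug
miR-195a-5p: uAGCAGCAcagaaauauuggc
miR-300-3p: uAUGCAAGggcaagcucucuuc

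The GLE minus model differences of the 6 ran from 0.37 for miR-652-3p to 0.64 for miR-195a-5p, beside 0.27 for miR-143-3p, and 0 passed the test (limma adjusted p = 0.935 for each). miR-379-5p, the closest, stood at −2.06, −2.69 and −1.27 (GLE replicates 1 to 3) and at −2.41, −2.87 and −2.47 (model replicates 1 to 3). Like miR-143-3p it was highest in GLE replicate 3 and lowest in model replicate 2, over a wider range. With these 6 miRNAs miR-145a-5p had r between 0.20 and 0.36.

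The miRNAs most like miR-145a-5p were others (r from 0.89 to 0.96): miR-3473e (0.96), miR-710 (0.94), miR-7036a-5p, miR-3154, miR-3077-5p and miR-370-3p (each 0.89). Of these, the probes of miR-370-3p also map to chromosome 12, where it belongs to the Dlk1-Dio3 cluster, and those of miR-3473e, miR-710 and miR-3154 are listed as unmapped. miR-3473e stood at −2.44, −2.60 and −2.34 (GLE replicates 1 to 3) and at −2.47, −2.33 and −2.60 (model replicates 1 to 3). Like miR-145a-5p it had GLE replicate 3 and model replicate 2 as its highest arrays. With these 6 miRNAs miR-143-3p had r between 0.0036 and 0.40. Each set of 6 was picked by its r with 1 arm on these same arrays, so a lower r with the other arm follows in part from the choice. Over 386 other tested miRNAs, without such a choice, the r with miR-143-3p and the r with miR-145a-5p correlated at 0.53, given with no test.

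**Figure D4:**
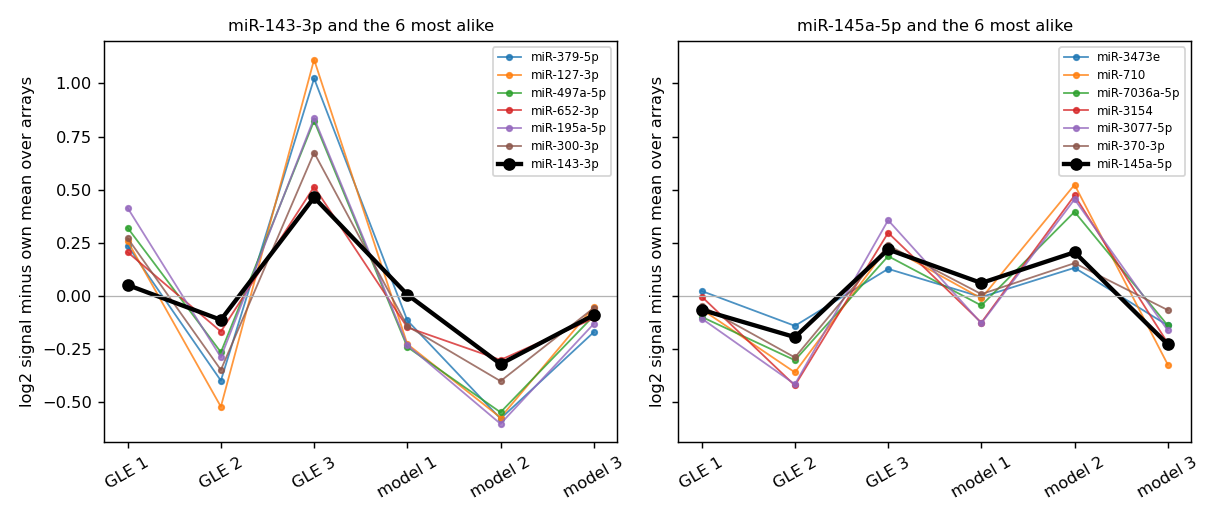
Log2 scaled signal minus each miRNA's own mean over the 6 arrays, for miR-143-3p (left, black) and miR-145a-5p (right, black) with the 6 miRNAs most like each; lines only join the points of a miRNA. The left set peaks in GLE replicate 3 and is lowest in model replicate 2, in which the right set is high.

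Other miRNAs known to act on the smooth muscle phenotype were described as a list of 11, all of them tested. Of their differences 8 were positive and 3 negative, while 198 of all 388 tested miRNAs had a positive one. The median was 0.31, beside 0.0078 for all tested miRNAs, and limma called 0 of the 11 (0% of all tested). Without GLE replicate 1 the median was 0.016, and without model replicate 1 it was 0.094. The groups did not overlap in 3 of the 11, against 6.70% of all tested miRNAs. With the percentile over all probes 6 differences were positive, and with all spike-ins, or with dmr_3 and dmr_6 alone, 11 were.

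On the contractile side, miR-1a-3p and miR-133a-3p, which are induced with the muscle differentiation programme, differed by 0.62 ± 0.59 and 0.52 ± 0.56 (SE, n = 3), and miR-133b-3p by 0.50 ± 0.59 (limma adjusted p = 0.935, 0.935 and 0.937). GLE replicate 1 stood apart, with miR-1a-3p at 0.33. The other tumours were between −2.39 and −1.09. The list of skeletal and cardiac muscle miRNAs, which shares these 3, had its highest mean there too, at −0.07 against −2.38 to −1.11 on the other arrays. Its members miR-208a-3p, miR-208b-3p and miR-499-5p were detected on 0 arrays. Without GLE replicate 1 the median of the contractile side moved from 0.50 to −0.0022, and without model replicate 1 to 0.11. It was 0.83 without GLE replicate 2, 0.77 without GLE replicate 3 and 0.79 without model replicate 2. miR-21a-5p, which TGF-beta and BMP signals raise in smooth muscle, was at 6.07, 5.78 and 6.21 (GLE replicates 1 to 3) and at 5.65, 5.49 and 5.76 (model replicates 1 to 3), without overlap (difference 0.39 ± 0.18, limma adjusted p = 0.935). miR-10a-5p, linked to smooth muscle differentiation from stem cells, differed by −0.10 ± 0.23.

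On the proliferative side the median was 0.053, with 4 of 6 differences positive. It was 0.018 with 3 of 6 positive without model replicate 2, 0.029 without GLE replicate 2, 0.089 without model replicate 1 and 0.094 without GLE replicate 1. miR-221-3p and miR-222-3p, which PDGF raises and which repress cell cycle inhibitors, are shown because they share a seed (capitals, bases 2 to 8) and differ in the bases after it:
miR-221-3p: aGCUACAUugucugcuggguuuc
miR-222-3p: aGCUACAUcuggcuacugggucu

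miR-221-3p differed by 0.04 ± 0.16 and miR-222-3p by 0.31 ± 0.17 (SE; limma adjusted p = 0.963 and 0.935). The values of miR-222-3p were −1.20, −1.51 and −1.15 (GLE replicates 1 to 3) and −1.61, −1.66 and −1.51 (model replicates 1 to 3). Its lowest GLE tumour and its highest model tumour were nearly level. miR-146a-5p, a brake on inflammatory signalling that is also described in proliferating smooth muscle, differed by 0.63 ± 0.24 without overlap (limma adjusted p = 0.935). Of the remaining 3, miR-24-3p differed by 0.07 ± 0.15, miR-26a-5p by −0.09 ± 0.21 and miR-31-5p by −0.19 ± 0.21.

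The guide arms themselves were recomputed under 18 alternatives that kept every array. Some of these could not move the differences. No detection filter, probes detected on all 6 arrays only, the lower floor and the replicate block returned 0.27 and −0.03 again. The brightest and the longer probe were the same probe, so these are not separate settings. The difference of miR-143-3p was positive in all 18, from 0.10 with normexp background correction to 0.90 with the spike-ins dmr_3 and dmr_6, and its smallest adjusted p over these and the 6 fits with an array left out was 0.261 (limma). That of miR-145a-5p ran from −0.14 to 0.61 and was positive in 6 of the 18. Much of this range is common to all miRNAs: the median of all tested miRNAs moved to 0.60 with the spike-ins dmr_3 and dmr_6 and to 0.30 with all spike-ins. Relative to that median, miR-143-3p was at 0.22 to 0.30 under 8 scalings and miR-145a-5p at −0.04 to 0.0031.

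**Figure D5:**
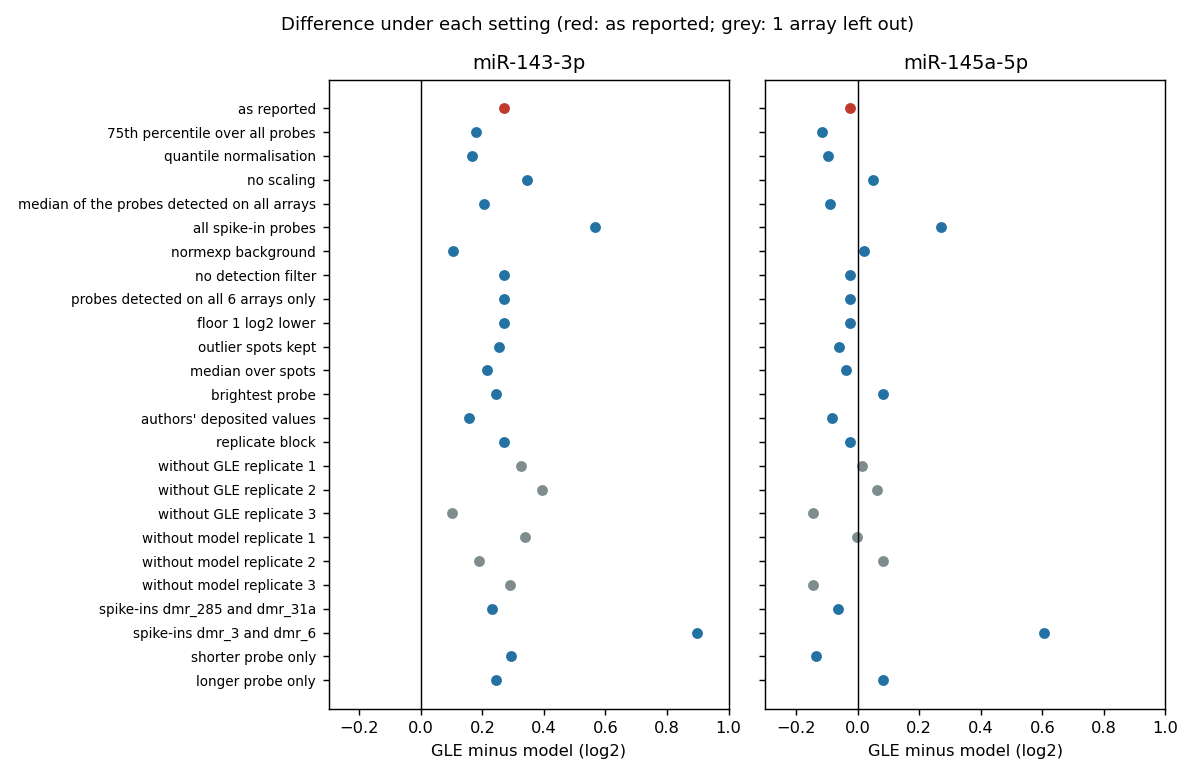
GLE minus model difference (log2) of miR-143-3p and miR-145a-5p under each setting, red as reported, blue for alternatives that keep every array and grey with 1 array left out. All values of miR-143-3p are above 0, and those of miR-145a-5p lie on both sides of 0.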

How the data were processed

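Per the labels' protocols, tumour RNA was extracted with TRIzol and labelled with Cy3. The authors deposited 1 Agilent Feature Extraction file per array (version 10.7.1.1, per the file headers and the submitters' processing notes), whose processed signal is an intensity after background subtraction and a spatial correction, not normalised between arrays. The authors' deposited table is on a log2 scale by comparison with the arrays (slope on scanner log2 values 1.09 to 1.17), with values of equal rank alike over arrays among its 300 brightest (median range 0) and its making not given in the sources used here; it served as an alternative. Its column medians, −3.20, −3.32, −3.27, −3.32, −3.17 and −3.13 for GLE replicates 1 to 3 and model replicates 1 to 3, equal each column's lowest value; its columns hold single arrays, so no direction applies, and whether it was centred stays unknown.

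Spots of a probe without outlier flags were averaged (mean), signals were scaled by the array's 75th percentile over probes that every array detected, with a floor of −4.25 (log2), and a miRNA was the mean of those of its probes that all arrays of 1 or both groups detected. Groups were compared with limma 3.58.1 in R 4.3.3 (Benjamini-Hochberg over 388 miRNAs, threshold 0.05; tested on simulated data). Single values were compared by exact permutation over 20 relabelings and relations over 720 pairings, two-sided. The members and lists were chosen with earlier results of these data known. Named miRNAs were the members, the 6 most correlated with each guide arm, and the lists. The rule also named entries sharing a seed with a member; it was not applied, since the RefSeq table at hand matched 0 of the 4 members.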

Additional observations from a re-analysis of the deposited data

How the results depend on the processing

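The counts of miRNAs past the threshold (0) and the direction of the miR-143-3p difference held under every alternative that was run. With an array left out, for which scale, floor and filter were recomputed, miR-143-3p ran from 0.10 to 0.39, miR-145a-5p from −0.15 to 0.083, the difference in the within-array ratio from 0.11 to 0.44 and the positive members of the regulator list from 6 to 9. miR-145a-5p turned to 0.049 with no scaling, 0.27 with all spike-ins, 0.61 with dmr_3 and dmr_6, 0.020 with normexp and 0.082 with the brightest or the longer probe. The correlation of the guide arms turned to −0.12 with the percentile over all probes and −0.0032 with the median of detected probes, passed the threshold at 0.84 with all spike-ins (exact permutation p = 0.0333, n = 6) and at 0.94 with dmr_3 and dmr_6 (exact permutation p = 0.00833, n = 6), and ran from −0.31 to 0.89 with an array left out, both ends included. For correlations, the threshold in these alternatives was applied to the unadjusted exact permutation p. An adjusted p, which can only be larger, was not computed for them. The relation of miR-143-3p with the mesenchymal list stayed positive, from 0.65 to 0.96. This relation lost the threshold under 4 alternatives that keep every array and without GLE replicate 1, GLE replicate 3 or model replicate 2. That with miR-126a-3p, from 0.64 to 0.98, lost it with the percentile over all probes, normexp and the authors' deposited values (exact permutation p = 0.106, 0.174 and 0.0611, n = 6) and without GLE replicate 3 or model replicate 2. The causes were not tested. Same-numbered arrays share a slide column and deviated together for replicate 3 but not for 1 and 2 (r = 0.37, −0.62 and −0.18 over 388 miRNAs), so the number was not taken as a pairing. With the replicate number as a block, miR-143-3p was 0.27 and miR-145a-5p −0.03 (limma adjusted p = 0.980 for both), the ratio difference 0.30 (exact sign-flip permutation p = 0.25, the smallest possible), the positive regulators 8 and 0 miRNAs passed, with 17 at an unadjusted p under 0.05. Slide and scan could not be fitted as a block, since there was 1 of each, and neither partner arm nor an arm ratio could be given a value. The scalings by spike-ins dmr_285 with dmr_31a and by dmr_3 with dmr_6, the single probes and the deviations from group means were chosen after seeing the data. The relations with the cell type lists were not planned either. Of the guide arms, miR-145a-5p had fewer spots well above background (157 against 180 of 180).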

Other observations

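The 2 sets of spike-in probes did not follow each other over the arrays. The probes for dmr_285 and dmr_31a varied by 1.17-fold between the highest and the lowest array, while those for dmr_3 and dmr_6 varied by 3.48-fold, with model replicate 1 highest and GLE replicate 2 lowest. Model replicate 2, the tumour in which miR-143-3p and miR-145a-5p diverged most, was neither the brightest nor the dimmest array. In it, 14 of 15 spots of each miR-145a-5p probe were well above background. It had 387 miRNAs detected, near the low end of the 378 to 458 over all arrays. Why the 2 arms diverged in it was not tested.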
